A study of Mus musculus with 2 samples.

Results

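S100 proteins are small calcium-binding proteins with EF-hand motifs. The values of 10 of their genes, S100a1, S100a4, S100a6, S100a8, S100a9, S100a10, S100a11, S100a13, S100b and S100g, were described here among the 32285 genes of 2 single-cell libraries of mouse aorta. The members were chosen by gene symbol and on their measured UMI levels, since the list was drawn up with results of these 2 libraries in view. Their levels and the differences between the libraries are therefore given as a description, and none was tested. The series asks how CD45 (Ptprc), a tyrosine phosphatase of leukocytes, acts in the endothelium during endothelial-to-mesenchymal transition, the shift of vessel-lining cells toward a smooth muscle or fibroblast state. The WT group was ApoE-/-/C57BL/6 mice, which lack apolipoprotein E and develop atherosclerosis, on a Western diet. In the EC-iCD45KO group, on the same ApoE-/- background and diet, tamoxifen had been used to delete CD45 from endothelial cells (EC). The Cre line, the ages and whether aortas of several animals were pooled are not given in the sources used here. The tissue was dissociated with Liberase and collagenases, and cells bound to beads against CD31, an endothelial surface protein, were loaded for 10x Genomics sequencing.

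Each group had 1 library, so no difference between the groups has a replicate check and no p-value was computed. Every interval is a 95% interval that covers counting error only. The libraries held 39849 (WT) and 30278 (EC-iCD45KO) barcodes with 92058043 and 88967918 UMIs (unique molecular identifiers, which mark captured RNA molecules), and medians of 1548 and 1405 UMIs per barcode. Median mitochondrial shares were 1.905% (WT) and 3.025% (EC-iCD45KO) of the UMIs of a barcode. After filtering, 35552 and 26064 cells remained, and 258 barcodes were kept in both libraries. The cells fell into 28 clusters, of which those with clear markers made up 14 classes that are called X-like here. Ptprc, the targeted gene, stood at 284 UMIs per 1000000 UMIs of the class (CPM) in WT and 113 in EC-iCD45KO EC-like cells, a log2 ratio of -1.33 (-1.44 to -1.21). It was also lower in SMC-like (smooth muscle) cells, at 174 against 84.0 CPM, and in macrophage-like cells, at 459 against 265. Lymphocyte transcripts were lower in the same classes. The 11 B-cell markers summed to 2256 CPM in WT and 734 in EC-iCD45KO EC-like cells (11 lower, none higher, none at 0) and to 1275 and 379 in SMC-like cells (11 lower). The 15 T/NK markers summed to 453 and 83.6 CPM in EC-like cells (13 lower, none higher, Klrb1c at 0 in WT and Ncr1 at 0 in EC-iCD45KO) and to 378.8 and 70.8 in SMC-like cells (12 lower, Gzma at 0 in EC-iCD45KO). In macrophage-like cells the B list summed to 412 and 106.5 CPM and the T/NK list to 171 and 108.5, each with 11 genes lower and none higher; Gzma of the T/NK list was at 0 in WT. Macrophage transcripts went the other way, with the 13 markers summing to 4401 and 6982 CPM in EC-like cells (13 higher, none lower, none at 0) and 2001 and 4125 in SMC-like cells (12 higher, 1 lower, none at 0). The part of these transcripts in the Ptprc difference was not tested. The cell makeup differed widely despite the CD31 enrichment: B-like cells numbered 5785 in WT and 331 in EC-iCD45KO, and macrophage-like cells 2434 and 6548. Any difference between the preparations is also a difference between the groups.

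Most S100 proteins work as dimers that change shape when calcium binds and then hold a partner protein. S100A8 and S100A9 pair to form calprotectin, a main cytosolic protein complex of neutrophils that is released in inflammation and binds receptors such as TLR4. S100A4, S100A6, S100A10 and S100A11 bind annexins, myosin and other parts of the membrane skeleton, and S100A4 is often used as a marker of mesenchymal change. S100B is a marker of glia and also of cartilage, and S100G is the calcium carrier calbindin-D9k of gut and kidney epithelium.

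Of the members, 8 lay on chromosome 3 within 3053610 bases (GRCm38), S100b lay on chromosome 10 and S100g on chromosome X. S100a4 and S100a6 were 6836 bases apart and S100a8 and S100a9 22596 bases apart. S100a1 and S100a13 lay head to head on opposite strands with 42 bases between their annotated genes. S100b shares its position in part with Dip2a and S100g with Ctps2. The strands of these neighbours and the counting of reads from the shared stretches were not examined. The sequences before 4 start sites are shown. S100a8 and S100a9 were chosen because they had the highest levels and the closest pattern of all members, and S100a6 and S100a11 because their EC-like levels stood furthest apart between the libraries outside that pair. They are RefSeq sequences on GRCm38.p6, the 250 bases before each annotated start, written along the gene's strand. Capitals mark matches on either strand to a C/EBP motif (TTNCNNAA), an AP-1 motif (TGANTCA) or a TATA box (TATAAA).
S100a8, chr3:90668821-90669070, plus strand: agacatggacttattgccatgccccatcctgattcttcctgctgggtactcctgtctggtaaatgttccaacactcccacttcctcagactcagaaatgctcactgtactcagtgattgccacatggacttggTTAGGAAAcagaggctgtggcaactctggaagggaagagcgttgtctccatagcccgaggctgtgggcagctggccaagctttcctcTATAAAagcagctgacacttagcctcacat
S100a9, chr3:90695722-90695971, minus strand: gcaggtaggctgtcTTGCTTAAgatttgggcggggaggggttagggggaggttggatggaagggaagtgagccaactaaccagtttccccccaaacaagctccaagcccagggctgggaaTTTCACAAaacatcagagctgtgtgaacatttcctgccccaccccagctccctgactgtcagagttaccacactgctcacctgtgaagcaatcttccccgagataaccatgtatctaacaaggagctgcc
S100a6, chr3:90612644-90612893, plus strand: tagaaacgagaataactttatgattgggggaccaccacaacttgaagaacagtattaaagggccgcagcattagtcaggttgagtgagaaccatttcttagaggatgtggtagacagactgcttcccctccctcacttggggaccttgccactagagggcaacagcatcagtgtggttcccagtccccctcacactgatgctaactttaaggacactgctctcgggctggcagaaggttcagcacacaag
S100a11, chr3:93520246-93520495, plus strand: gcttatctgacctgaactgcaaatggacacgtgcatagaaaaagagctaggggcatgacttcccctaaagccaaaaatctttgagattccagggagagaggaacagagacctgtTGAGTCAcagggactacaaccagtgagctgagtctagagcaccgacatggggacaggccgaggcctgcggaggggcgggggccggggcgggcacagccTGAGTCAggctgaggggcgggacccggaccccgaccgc
S100a8 held 1 C/EBP match beginning 117 bases before the start site and a TATA box 30 bases before it. S100a9 held 2 C/EBP matches, 236 and 130 bases before the start, and S100a11 held 2 AP-1 matches, 136 and 38 bases before it. S100a6 held none of these letters. Of 32851 mouse promoters of the same length, 36.8% held the C/EBP letters, 6.75% the AP-1 letters and 12.4% the TATA box, so the C/EBP match is common. A match of letters shows no binding.

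The stretch between the RefSeq starts of S100a1 and S100a13 is shown because both genes share it as upstream sequence. It is 104 bases long with 58.7% G and C, and its 3 CG steps are in capitals.
S100a1 to S100a13, chr3:90514331-90514434, plus strand: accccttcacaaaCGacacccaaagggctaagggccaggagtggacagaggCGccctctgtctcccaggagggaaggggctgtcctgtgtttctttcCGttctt

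S100a8 and S100a9, the subunits of calprotectin, were concentrated in neutrophil-like cells. In that class the WT library had S100a8 at 8436 CPM (8173 to 8705) and the EC-iCD45KO library at 8392 (8243 to 8542), with S100a9 at 16380 and 15500. The class held 66.0% of all S100a8 UMIs and 65.9% of all S100a9 UMIs of the WT library, and 74.8% and 76.6% of those of the EC-iCD45KO library. It had only 265 cells (0.745%) in WT and 697 (2.67%) in EC-iCD45KO. Within it the log2 ratio between the libraries was -0.01 (-0.06 to 0.05) for S100a8 and -0.08 (-0.12 to -0.04) for S100a9, the latter turning positive under 3 alternatives.

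The balance of the subunits was close in both libraries. S100a9 had 1.94 UMIs (1.87 to 2.02) for each S100a8 UMI in WT neutrophil-like cells and 1.85 (1.81 to 1.89) in EC-iCD45KO. After thinning each cell to 1000 UMIs, 81.0% and 74.0% of neutrophil-like cells had an S100a8 UMI and 87.2% and 82.2% an S100a9 UMI. In B-like cells, which should lack both genes, 0.427% and 0.647% had an S100a8 UMI and 0.798% and 1.29% an S100a9 UMI after thinning, at median depths of 2007 and 2555 UMIs against 1237 and 1559 in neutrophil-like cells. Neither subunit therefore marked every neutrophil-like cell at this depth, and both were far above the B-like share.

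**Figure D1:**
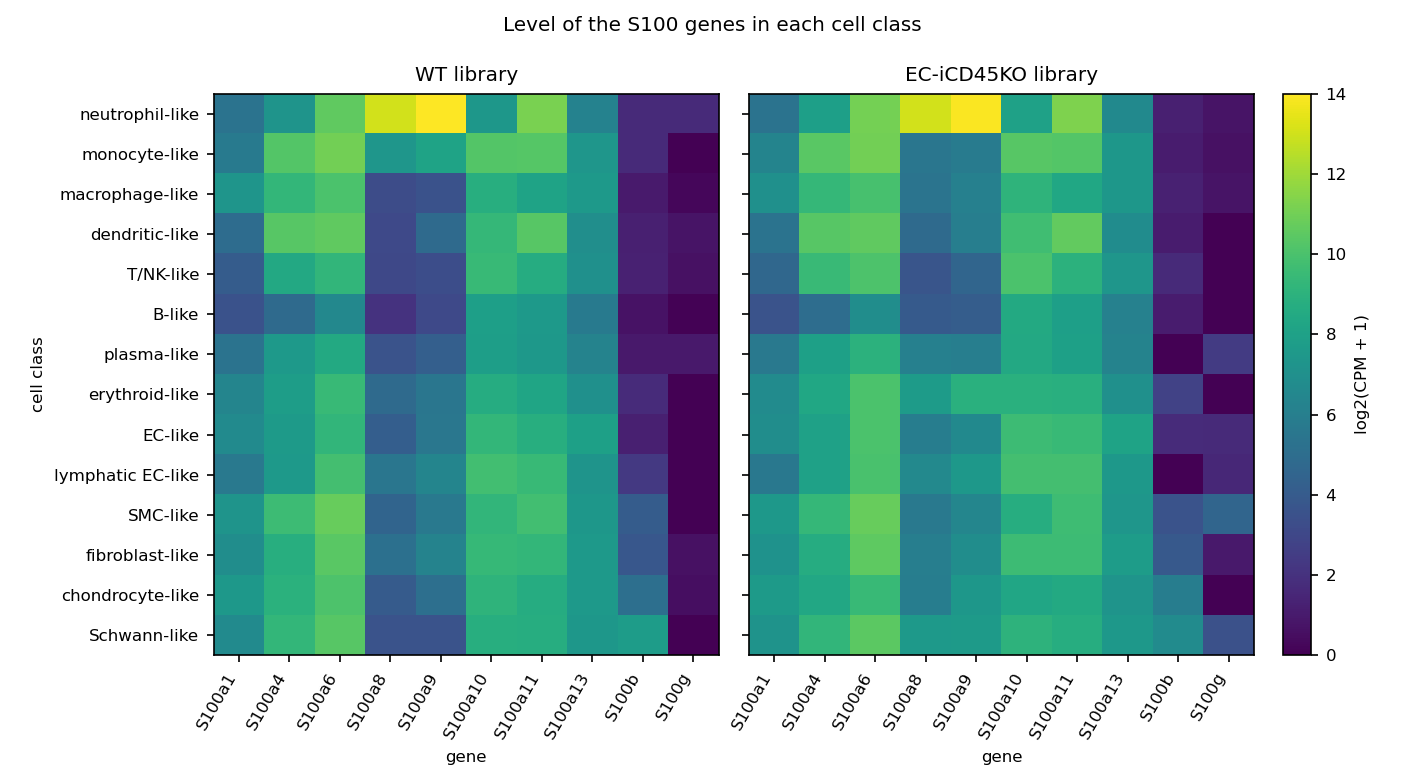
Level of the 10 S100 genes (columns) in 14 cell classes (rows) as log2(CPM + 1), with WT at the left and EC-iCD45KO at the right. S100a8 and S100a9 are brightest in neutrophil-like cells, S100a6, S100a10 and S100a11 are bright in most rows, and S100b and S100g are dark in most.

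Outside neutrophil-like cells the pair was low but stood higher in the EC-iCD45KO library almost throughout. The difference was at least 2-fold upward in 10 of 14 classes for each gene. The call held under every alternative run in 7 of these classes for S100a8, all but SMC-like, chondrocyte-like and lymphatic EC-like cells, and in 6 for S100a9, all but B-like, EC-like, dendritic-like and lymphatic EC-like cells. In the lymphatic EC-like class, with 22 and 49 S100a8 UMIs, the stricter cell filter turned the log2 ratios of 1.12 and 1.10 to -0.58 and -1.34. Chondrocyte-like S100a8 was at 0.96 with that filter and at 0.84 (-0.08 to 1.65) without the cells rich in the pair. This class also held a cluster of 1960 WT cells and 0 EC-iCD45KO cells. In its cluster present in both libraries S100a8 stood at 9.86 and 59.3 CPM and S100a9 at 21.6 and 169. The neutrophil list of the class summed to 283.5 and 6348 CPM (2 of 14 higher, 1 lower, 7 at 0 in EC-iCD45KO), and its part was not tested. The classes without a 2-fold difference upward were neutrophil-like, monocyte-like and fibroblast-like cells for both genes, T/NK-like cells for S100a8 and SMC-like cells for S100a9. Fibroblast-like S100a8 reached 1.49 without doublet removal, however. As a background, of all genes whose 2 levels averaged 5 CPM or more, 1.81% stood at least 2-fold higher in EC-iCD45KO in EC-like cells, 1.89% in SMC-like, 1.8% in fibroblast-like, 0.904% in macrophage-like and 1.79% in monocyte-like cells. The shares were 3.12% in B-like, 5.9% in T/NK-like, 2.92% in dendritic-like and 5.6% in chondrocyte-like cells. They were wider in classes with few cells or large shifts, at 7.94% in neutrophil-like, 9.48% in lymphatic EC-like, 11.6% in plasma-like, 15.1% in erythroid-like and 15.4% in Schwann-like cells.

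In EC-like cells S100a8 stood at 17.4 CPM in WT and 60.7 in EC-iCD45KO (log2 ratio 1.80, 1.496 to 2.12), and S100a9 at 45.4 and 97.8 (1.11, 0.91 to 1.31). In macrophage-like cells S100a8 stood at 8.43 and 40.1 CPM (2.25, 1.94 to 2.58) and S100a9 at 10.6 and 68.4 (2.69, 2.41 to 2.98). In SMC-like cells the values were 21.4 and 50.1 CPM for S100a8 (1.23, 0.997 to 1.46) and 50.1 and 84.3 for S100a9. At Leiden resolution 2 the SMC-like S100a8 ratio was 0.43 and the macrophage-like S100a9 ratio 1.79, and without doublet removal the EC-like S100a8 ratio was 1.18. These levels are a small fraction of those in neutrophil-like cells. Schwann-like cells had 2 UMIs of each gene in WT (10.95 CPM), and 154 and 159 in EC-iCD45KO (193 and 199 CPM). Of the 154 S100a8 UMIs, 66.9% lay in 30 of 419 cells with at least 5 UMIs of the pair. The neutrophil list summed to 32.85 and 215.6 CPM there (2 of 14 higher, none lower), with 10 genes at 0 in WT and 5 in EC-iCD45KO. Its part in these differences was not tested.

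In EC-like, SMC-like and macrophage-like cells, few cells carried much of this signal. Cells outside the neutrophil-like class with at least 5 UMIs of the pair made up 0.758% of WT and 0.828% of EC-iCD45KO EC-like cells, 0.883% and 3.20% of SMC-like cells, and 0.164% and 1.59% of macrophage-like cells. In EC-iCD45KO EC-like cells, 31 such cells of 3742 held 69.3% of the S100a8 UMIs, and in WT 20 of 2638 held 48.5%. Without these cells S100a8 in EC-like cells stood at 9.01 and 18.9 CPM (log2 ratio 1.07, 0.61 to 1.54) and S100a9 at 25.5 and 37.6 (0.56, 0.28 to 0.85). In macrophage-like cells S100a9 then stood at 5.50 and 28.2 CPM (2.36, 1.98 to 2.77). In SMC-like cells the S100a8 ratio was then 0.61, and in SMC-like and fibroblast-like cells the S100a9 intervals included 0, at 0.15 (-0.08 to 0.38) and 0.14 (-0.08 to 0.36). This did not hold in plasma-like, B-like and T/NK-like cells. Plasma-like cells had 0 cells with at least 5 UMIs of the pair in both libraries, and B-like cells had 1 in WT and 0 in EC-iCD45KO. S100a8 still stood at 10.8 and 67.05 CPM in plasma-like cells and at 3.19 and 14.5 in B-like cells, from 15 and 13 UMIs in EC-iCD45KO.

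In EC-like, macrophage-like and SMC-like cells, a larger share of the cells with at least 5 UMIs of the pair held other neutrophil transcripts. At least 1 UMI of 9 other neutrophil markers was found in 71.0% (52.0 to 85.8) of these EC-like cells of EC-iCD45KO against 13.7% of the rest, and in 69.2% against 21.9% of macrophage-like cells. In SMC-like cells the shares were 66.7% and 10.8%. The intervals overlapped in EC-iCD45KO monocyte-like cells, at 58.1% (39.1 to 75.5) against 43.0% (40.6 to 45.5), and in dendritic-like cells, at 75% (42.8 to 94.5) against 60.5% (56.96 to 63.9). Median depths there were 1195 and 3756 UMIs in monocyte-like and 1154 and 3367 in dendritic-like cells. Own class markers were present in the cells with the pair, and lower than in the rest in EC-like, SMC-like and macrophage-like cells. The summed EC list stood at 3448 CPM in the WT EC-like cells with the pair against 5949 in the others, and at 6166 against 6673 in EC-iCD45KO. The SMC list stood at 9080 against 15680 CPM in WT and 20830 against 25370 in EC-iCD45KO SMC-like cells. The macrophage list stood at 17320 against 33190 CPM in WT, from 4 cells with the pair, and 30540 against 35690 in EC-iCD45KO macrophage-like cells. In monocyte-like cells the own list was higher in cells with the pair, at 5819 against 3848 CPM in WT, from 9 cells, and 3078 against 2493 in EC-iCD45KO. Those 9 WT cells held 57 UMIs of Chil3, 20 of Ly6c2 and 6 of Ccr2, all on the monocyte list. Of the 57 Chil3 UMIs, 35 lay in 1 cell that also held the neutrophil genes Ngp, Camp and Ly6g. The whole list of 14 neutrophil markers summed to 87.6 CPM in WT and 131 in EC-iCD45KO EC-like cells, with 6 of 14 higher beyond counting error, none lower and Ly6g at 0 in EC-iCD45KO. In macrophage-like cells it summed to 61.0 and 92.6 CPM, with 9 higher, 1 lower and Ly6g, Stfa2l1 and Ngp at 0 in WT. The part of these neutrophil transcripts in the S100a8 and S100a9 differences was not tested.

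**Figure D2:**
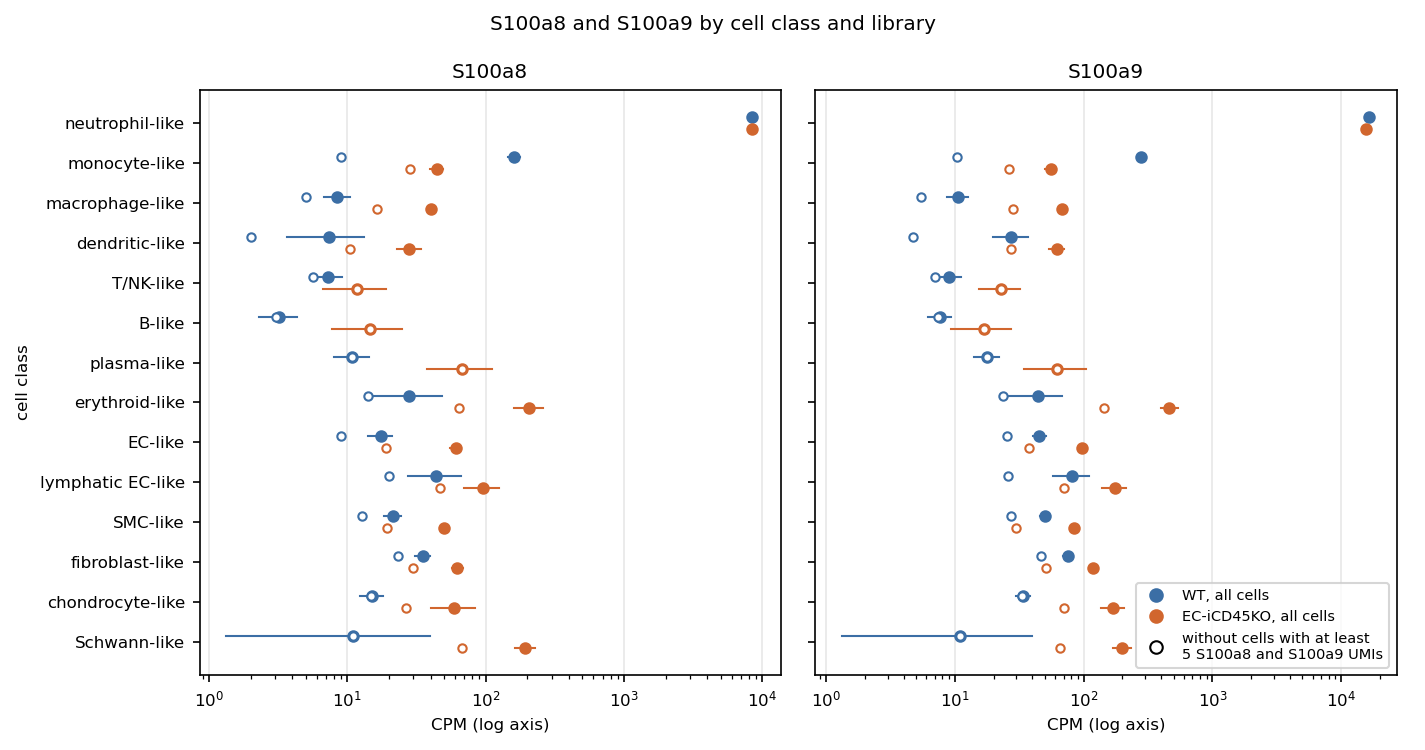
CPM (log axis) of S100a8 and S100a9 in 14 cell classes, with filled circles for all cells of a class, bars for 95% counting intervals and open circles for the class without cells that hold at least 5 UMIs of the pair. Neutrophil-like cells stand far to the right in both libraries, and most EC-iCD45KO circles lie to the right of the WT circle of the same class.

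Monocyte-like cells were the exception, and 1 cell decided their direction. Over all cells S100a8 stood at 160 CPM in WT and 44.3 in EC-iCD45KO (log2 ratio -1.85, -2.06 to -1.64), and S100a9 at 278 and 55.5 (-2.32, -2.50 to -2.15), in a class in which 4.82% of genes stood at least 2-fold lower. A single WT cell with 4148 UMIs held 380 of the 434 S100a8 UMIs and 656 of the 754 S100a9 UMIs of this class. It also held 308 of 308 UMIs of Ngp, 134 of 135 of Camp and 10 of 10 of Ly6g, all neutrophil genes. Without it S100a8 stood at 19.9 CPM in WT and the log2 ratio was 1.15 (0.73 to 1.60), and S100a9 stood at 36.1 and the ratio was 0.62 (0.30 to 0.95). Both genes thus stood higher in EC-iCD45KO monocyte-like cells once this cell was left out, a choice made after the values were seen.

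S100a6, S100a11, S100a10 and S100a4, which bind annexins and the cytoskeleton, were found in every class. S100a6 had its highest level in monocyte-like cells of WT, at 2047 CPM, and in neutrophil-like cells of EC-iCD45KO, at 2175, and was lowest in B-like cells, at 91.4 and 116. S100a11 was highest in neutrophil-like cells, at 2308 and 2520 CPM. S100a10, the annexin A2 partner, was highest in monocyte-like cells (1226 and 1303 CPM) and lowest in neutrophil-like cells (167 and 254), the opposite end to S100a11. S100a4 stood highest in dendritic-like (1331 and 1333 CPM) and monocyte-like cells (1212 and 1344) and lowest in B-like cells (27.6 and 31.2). In the order of the 14 levels in WT, 8 of 13 neighbouring classes differed beyond counting error for S100a4 and 10 of 13 for S100a6.

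In EC-like cells all 8 members whose levels averaged 5 CPM or more stood higher in the EC-iCD45KO library beyond counting error, as did 19.1% of all 10939 genes compared there. S100a6 stood at 604 CPM in WT and 1068 in EC-iCD45KO (log2 ratio 0.82, 0.77 to 0.88), the largest difference after the calprotectin pair. The share of EC-like cells with an S100a6 UMI after thinning was 36.1% and 56.4%. S100a11 stood at 440 and 687 CPM, S100a4 at 197 and 259 (0.40, 0.29 to 0.50), and S100a10 at 611 and 775 (0.34, 0.28 to 0.40). S100a13, which takes part in the unconventional release of FGF1 and IL-1 alpha, stood at 245 and 282 CPM (0.20, 0.11 to 0.30), and S100a1, a regulator of calcium pumps and channels in muscle, at 104 and 116 (0.17, 0.02 to 0.31). The median log2 ratio of the 8 members was 0.52, beside -0.01 for all 10939 genes tested in that class. Only S100a8 and S100a9 passed 2-fold. The 8 cycling markers summed to 110 and 339 CPM in EC-like cells (8 higher, none lower), and their part in the S100 differences was not tested.

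The EC-like class joined 2 clusters, and the members did not all behave alike in them. In the cluster led by Ackr1 and Gpihbp1, with the deeper cells (medians of 2426 and 2984 UMIs), S100a6 stood at 535 and 935 CPM (log2 ratio 0.81, 0.72 to 0.89) and S100a11 at 413 and 695 (0.75, 0.65 to 0.84). S100a10 stood at 688 and 829 there. Intervals included 0 for S100a4, at 98.2 and 88.3 CPM (-0.15, -0.37 to 0.07), and S100a1, at 111 and 107. They also included 0 for S100a8, at 8.44 and 12.9 (0.61, -0.08 to 1.34), and S100a9, at 18.9 and 23.3. In the cluster led by Glycam1 and Ackr1, with medians of 1184 and 1002 UMIs, S100a4 stood at 295 and 467 CPM (0.66, 0.55 to 0.78), S100a6 at 673 and 1231 and S100a8 at 26.4 and 119. The member median was 0.29 in the deeper cluster and 0.60 in the shallower one, beside -0.01 and -0.04 for all genes compared. The S100a4 difference of the class was therefore seen in its shallower cluster, while those of S100a6, S100a10 and S100a11 were present in both.

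Transcripts of other classes moved along in the shallower cluster. The 13 macrophage markers summed to 7232 CPM in WT and 13220 in EC-iCD45KO there, with 13 of 13 higher, none lower and none at 0. In the deeper cluster they summed to 1573 and 1869 CPM, with 2 higher, 5 lower and none at 0. The neutrophil list summed to 97.6 and 191 CPM in the shallower cluster, with 8 of 14 higher, none lower, Ltf at 0 in WT and Ly6g at 0 in EC-iCD45KO. It summed to 77.6 and 81.7 CPM in the deeper one, with 1 higher, none lower, Ly6g at 0 in both libraries and Camp at 0 in EC-iCD45KO. The part of the macrophage and neutrophil transcripts in the S100 differences of these clusters was not tested. An unnamed cluster led by Sfrp1 and Gkn3, whose EC list summed to 5764 and 6630 CPM, had S100a6 at 945 and 1132 CPM (0.26, 0.16 to 0.36), S100a11 at 827 and 1014 (0.29, 0.19 to 0.40) and S100a4 at 347 and 324 (-0.10, -0.27 to 0.08). S100a8 stood at 16.5 and 63.6 CPM there (1.95, 1.36 to 2.57) and S100a9 at 32.5 and 65.9 (1.02, 0.54 to 1.501).

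**Figure D3:**
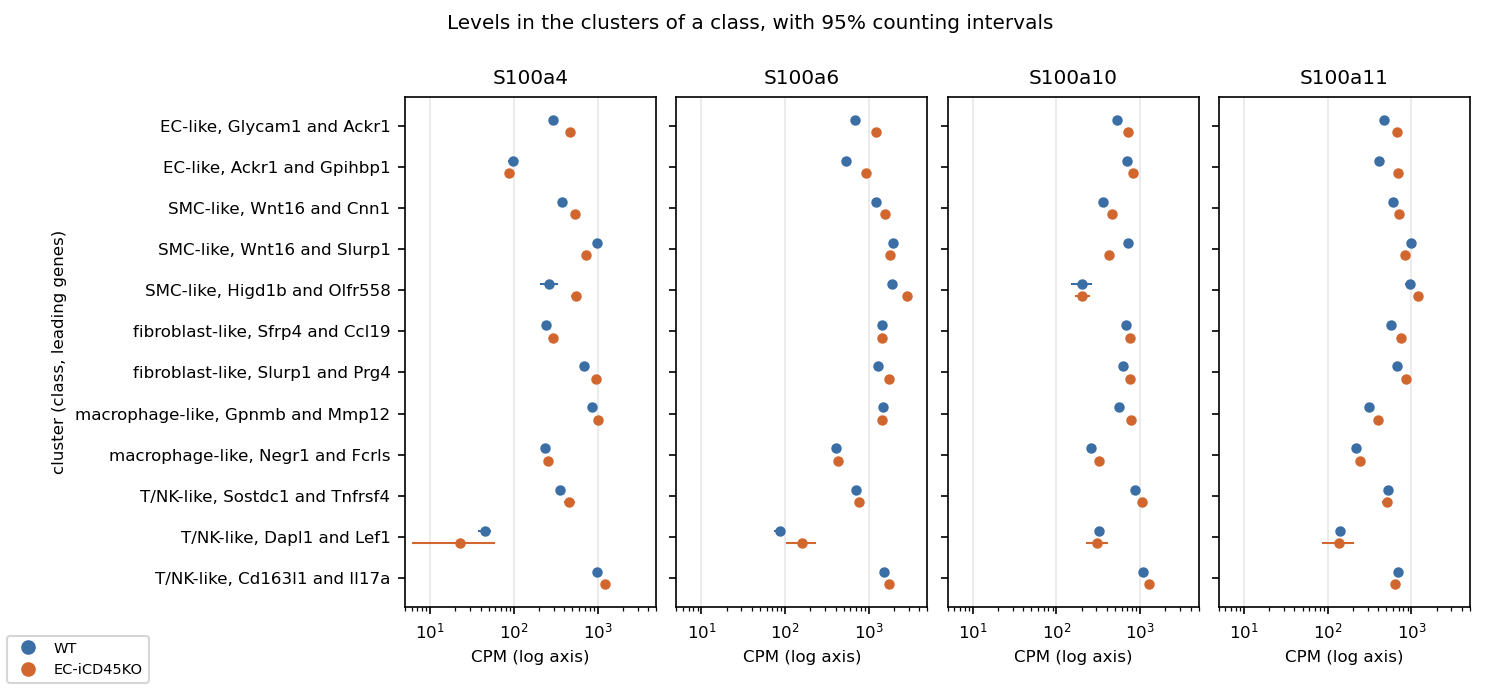
CPM (log axis) with 95% counting intervals of S100a4, S100a6, S100a10 and S100a11 in the clusters that make up 5 classes, with WT in blue and EC-iCD45KO in orange. S100a6 and S100a11 lie to the right in EC-iCD45KO in both EC-like clusters, and S100a4 spans more than 10-fold between the T/NK-like clusters.

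In SMC-like cells the same genes stood lower or close to equal in the EC-iCD45KO library. S100a4 stood at 769 and 649 CPM (log2 ratio -0.24, -0.29 to -0.20), S100a10 at 584 and 429 (-0.45, -0.50 to -0.39), S100a11 at 860 and 814 and S100a6 at 1702 and 1748. S100a1 was higher, at 153 and 179 CPM (0.23, 0.13 to 0.32). Under 3 alternatives the S100a4 ratio was above 0 (0.31, 0.082 and 0.16), as was that of S100a11 (0.13, 0.11 and 0.12), and that of S100a10 was 0.028 as a mean of single-cell CPM. The median over 10 members was 0.01, or 0.34 at Leiden resolution 2, beside -0.06 for all 10897 genes. The 10 members include S100g, which had 0 UMIs in WT and averaged 5 CPM or more only through EC-iCD45KO (22.4 CPM). It entered the median as the highest ratio.

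These SMC-like values joined clusters that went opposite ways. In the deep cluster led by Wnt16 and Slurp1, with medians of 8001 and 9492 UMIs, S100a4 stood at 986 and 720 CPM (-0.45, -0.50 to -0.40), S100a10 at 716 and 426 and S100a6 at 1939 and 1777. In the shallow cluster led by Wnt16 and Cnn1, S100a4 stood at 375 and 544 CPM (0.53, 0.43 to 0.64), S100a10 at 355 and 460 and S100a6 at 1199 and 1568. In the smallest cluster, led by Higd1b and Olfr558 with 65 and 80 cells, S100a4 stood at 264 and 554 CPM and S100a6 at 1863 and 2869. No direction of S100a4, S100a6 or S100a10 held in all 3 clusters. In the deep cluster the 13 fibroblast markers summed to 15490 and 12360 CPM (3 higher, 8 lower, none at 0) and the 12 SMC markers to 14920 and 28360 (11 higher, none lower, none at 0). Over the class the macrophage list summed to 2001 and 4125 CPM, and the neutrophil list to 358 and 766 (6 of 14 higher, none lower, Ly6g and Ngp at 0 in WT). The part of these lists in the S100 differences was not tested.

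**Figure D4:**
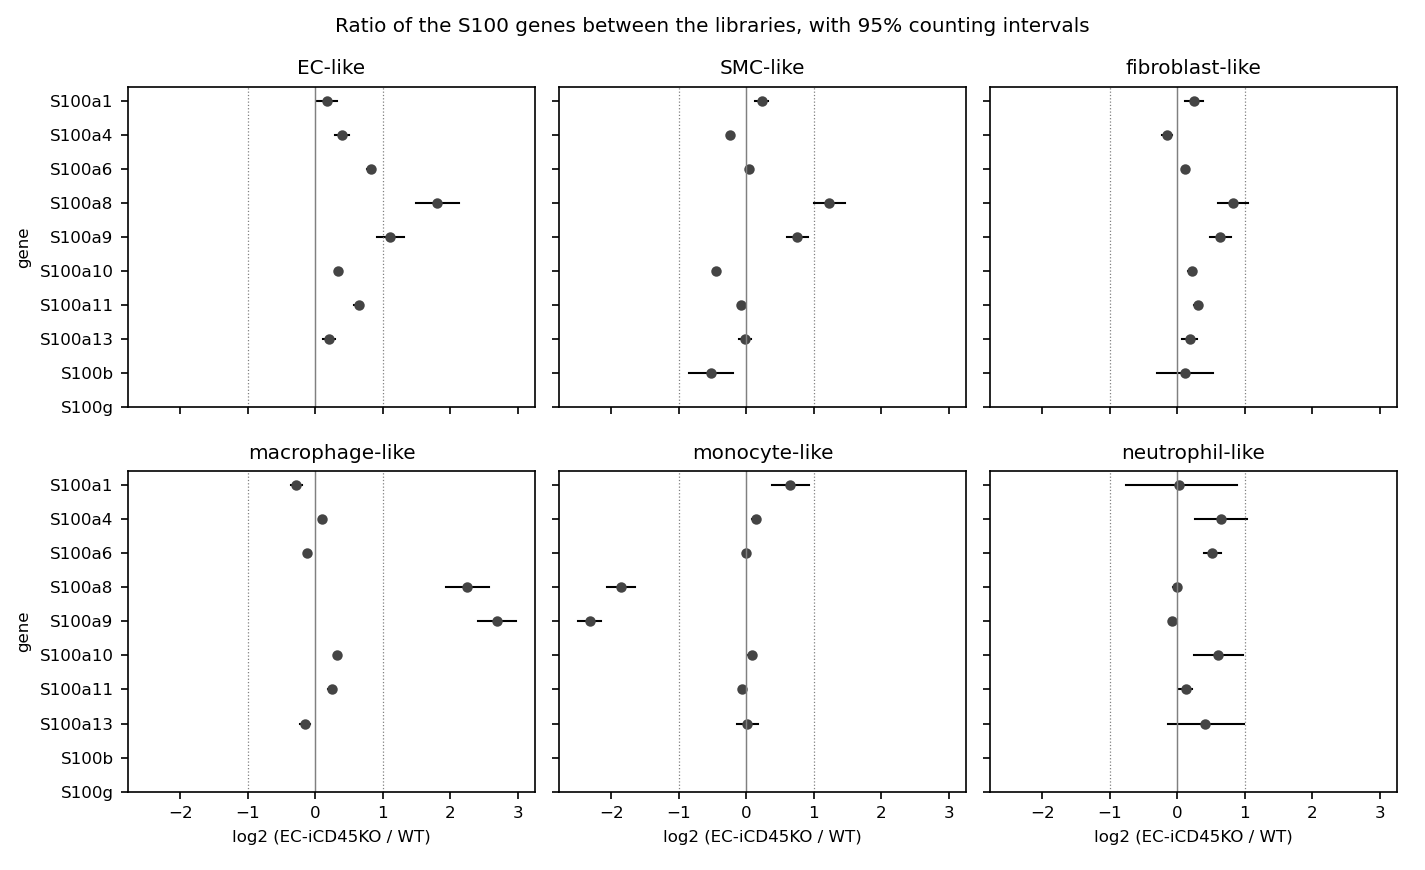
Log2 ratio of EC-iCD45KO over WT (x axis) with 95% counting intervals for the members that averaged 5 CPM or more, in 6 classes, with dotted lines at 2-fold. All EC-like points lie right of 0, SMC-like points lie on both sides, and the monocyte-like S100a8 and S100a9 points lie far left, where 1 WT cell placed them. SMC-like S100g, with 0 UMIs in WT, is not drawn.

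Macrophage-like cells held a contrast between clusters that both libraries shared. In the cluster led by Gpnmb and Mmp12, genes of foamy and lipid-handling macrophages, S100a4 stood at 851 CPM in WT and 1011 in EC-iCD45KO, and in the cluster led by Negr1 and Fcrls at 236 and 253, so it was 3.61-fold and 4.01-fold higher in the first. S100a6 stood at 1470 and 1445 CPM in the first and 402 and 433 in the second, and S100a10 at 565 and 766 against 260 and 322. Between the libraries, S100a10 stood at 443 and 553 CPM (0.32, 0.27 to 0.37) and S100a11 at 273 and 324 (0.25, 0.19 to 0.31) over the class, although the S100a11 ratio was -0.15 at Leiden resolution 2. S100a1, at 155 and 127 CPM (-0.28, -0.37 to -0.20), and S100a13, at 187 and 168, stood lower in EC-iCD45KO. The S100a6 ratio, -0.12 (-0.15 to -0.09), was near 0 when the clusters had equal weight.

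S100a4 in T/NK-like cells followed the cluster more than the library. It stood at 44.7 and 22.6 CPM in the cluster led by Dapl1 and Lef1, genes of naive T cells, at 360 and 459 in the cluster led by Sostdc1 and Tnfrsf4, and at 982 and 1234 in the cluster led by Cd163l1 and Il17a, genes of gamma-delta T cells. The class value, 344 and 715 CPM (1.05, 0.95 to 1.16), joined these clusters in different proportions, with 1579 WT but 66 EC-iCD45KO cells in the first. Over the class the macrophage list summed to 1369 and 3259 CPM (13 of 13 higher, none at 0) and the B list to 595 and 139 (1 of 11 higher, 10 lower), and their part in the S100a4 difference was not tested. In fibroblast-like cells the class value of S100a4 was lower in EC-iCD45KO, at 441 and 398 CPM (-0.15, -0.22 to -0.07), but it was higher in each cluster: 244 and 291 in the one led by Sfrp4 and Ccl19, and 687 and 944 in the one led by Slurp1 and Prg4. The latter held 3319965 of 7442744 UMIs of the class in WT and 1210780 of 7348917 in EC-iCD45KO. Over the fibroblast-like class the fibroblast list summed to 16790 and 24660 CPM (12 of 13 higher, 1 lower), the macrophage list to 4733 and 7011 (12 of 13 higher, none lower), the neutrophil list to 241 and 670 (8 of 14 higher, none lower, Ly6g at 0 in both libraries) and the B list to 2356 and 376.5 (11 of 11 lower). Their part in the S100a4 differences of the class and its clusters was not tested. Class ratios of S100a4 in these 2 classes therefore depend on which clusters each library held.

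The other myeloid classes did not share 1 pattern. In monocyte-like cells S100a6 stood at 2047 CPM in both libraries (log2 ratio 0.00, -0.04 to 0.05) and S100a11 at 1260 and 1212, and S100a1 at 50.8 and 80.0 (0.65, 0.39 to 0.93). In neutrophil-like cells S100a6 stood at 1513 and 2175 CPM (0.52, 0.41 to 0.64), S100a4 at 152 and 237 (0.64, 0.27 to 1.03), S100a10 at 167 and 254 (0.61, 0.25 to 0.98) and S100a11 at 2308 and 2520, the last with a log2 ratio of 0.13 that was -0.017 as a mean of single-cell CPM. In dendritic-like cells S100a11 stood at 1299 and 1596 CPM (0.30, 0.22 to 0.37), S100a10 at 642 and 823, and S100a8 and S100a9 at 7.36 against 27.9 and 27.4 against 62.1, while S100a4 and S100a6 had intervals that included 0. The 13 macrophage markers summed to 13870 and 21230 CPM in monocyte-like (11 higher, 1 lower), 7992 and 10540 in neutrophil-like (11 higher, 1 lower) and 2338 and 5384 in dendritic-like cells (13 higher, none lower), with none at 0. Their part in the S100 differences of these classes was not tested.

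S100a13 had the narrowest range of the members with a UMI in every class, 4.61-fold between the highest and lowest class in WT and 4.02-fold in EC-iCD45KO. It was highest in EC-like cells in both libraries (245 and 282 CPM) and lowest in B-like cells (53.0 and 70.1), and only 2 of 13 neighbours in its WT order and 1 of 13 in its EC-iCD45KO order differed beyond counting error. S100a1 spanned 17.04-fold and 17.97-fold and was highest in chondrocyte-like cells, at 176 and 200 CPM, and lowest in B-like cells, at 10.3 and 11.1. In EC-iCD45KO the chondrocyte-like value did not differ from the next, SMC-like cells at 179 CPM, beyond counting error.

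S100b, the glial and cartilage member, was highest in Schwann-like cells, at 214 CPM (152 to 292, from 39 UMIs) in WT and 107 (85.1 to 132, from 85 UMIs) in EC-iCD45KO. The log2 ratio was -1.003 (-1.57 to -0.42), in a class of 87 and 419 cells in which 13% of 11442 genes stood at least 2-fold lower. The 12 Schwann markers summed to 8487 and 8629 CPM (5 higher, 3 lower, none at 0), and the 13 macrophage markers to 5147 and 14400 (13 higher, none lower, none at 0). Other lists were lower, with no gene higher: B at 1949 and 192 CPM (8 lower) and plasma at 4611 and 234 (4 lower). The T/NK list stood at 542 and 117 (7 lower) and the kidney tubule list at 1281 and 456 (2 lower), also with no gene higher. The part of all these lists in the S100b difference was not tested. After thinning, 14.8% and 9.16% of Schwann-like cells had an S100b UMI, with intervals of 6.98 to 26.2% and 5.90 to 13.4%. Among macrophage-like cells, which should lack S100b, the shares were 0.131% and 0.0969%, at median depths of 3726 and 2938 UMIs against 1659 and 1148 in Schwann-like cells.

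Most S100b UMIs lay outside Schwann-like cells. Of 592 S100b UMIs in WT, 229 were in chondrocyte-like cells and 149 in SMC-like cells, and of 478 in EC-iCD45KO, 163 were in SMC-like and 103 in fibroblast-like cells. The level in chondrocyte-like cells was 33.0 and 61.1 CPM. The chondrocyte-like cluster present in both libraries, led by Ibsp and Col2a1, stood at 64.1 and 61.1 (-0.07, -0.65 to 0.47). The other chondrocyte-like cluster held 1960 WT cells and no EC-iCD45KO cell.

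S100g, the calcium carrier of transporting epithelia, was nearly absent from the WT library and present in few cells of the EC-iCD45KO library. WT held 24 S100g UMIs in 23 of 35552 cells, with at most 2 in a cell. EC-iCD45KO held 552 UMIs in 107 of 26064 cells, of which 30 cells with at least 5 held 449, and up to 53 in a cell. In SMC-like cells WT had 0 S100g UMIs, which allows up to 0.323 CPM (3 counts), and EC-iCD45KO had 326 (22.4 CPM), at least 69.3-fold higher. Without 20 SMC-like cells with at least 5 S100g UMIs, 17 UMIs (1.17 CPM) remained.

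In the clusters with most S100g UMIs, many S100g cells held transcripts of kidney tubule cells; S100g cells of other clusters were not examined for them. In the SMC-like cluster led by Wnt16 and Cnn1, 29 cells held 308 S100g UMIs. Of these 29 cells, 65.5% (45.7 to 82.1) had a UMI of Aqp2, a water channel of the collecting duct, 62.1% of Calb1, the kidney calcium carrier calbindin-D28k, and 55.2% of Hsd11b2, against 0.138%, 0.173% and 0.0692% of the 2889 cells without S100g. The other 7 kidney tubule markers, Umod, Slc12a3, Slc12a1, Slc34a1, Kap, Lrp2 and Egf, were at 0 in the 29 cells, and Acta2, smooth muscle actin, had a UMI in 29 of 29. The unnamed cluster led by Sfrp4 and Saa3, with 502 EC-iCD45KO and 23 WT cells, held another 162 S100g UMIs in 25 cells, of which 72% had an Aqp2 UMI, 60% a Calb1 UMI and 52% an Hsd11b2 UMI. In SMC-like cells the 10 kidney tubule markers summed to 8.18 CPM (WT) and 25.5 (EC-iCD45KO), with 5 higher, none lower and Slc34a1 and Lrp2 at 0 in WT. The shares in the 2 clusters were not thinned, and the cells with S100g were deeper. They had medians of 3194 UMIs in the Wnt16 and Cnn1 cluster and 2349 in the Sfrp4 and Saa3 cluster. Over these clusters the EC-iCD45KO medians were 1220 and 1892. Whether these barcodes held 1 cell or more, and the part of depth in the shares, was not tested.

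**Figure D5:**
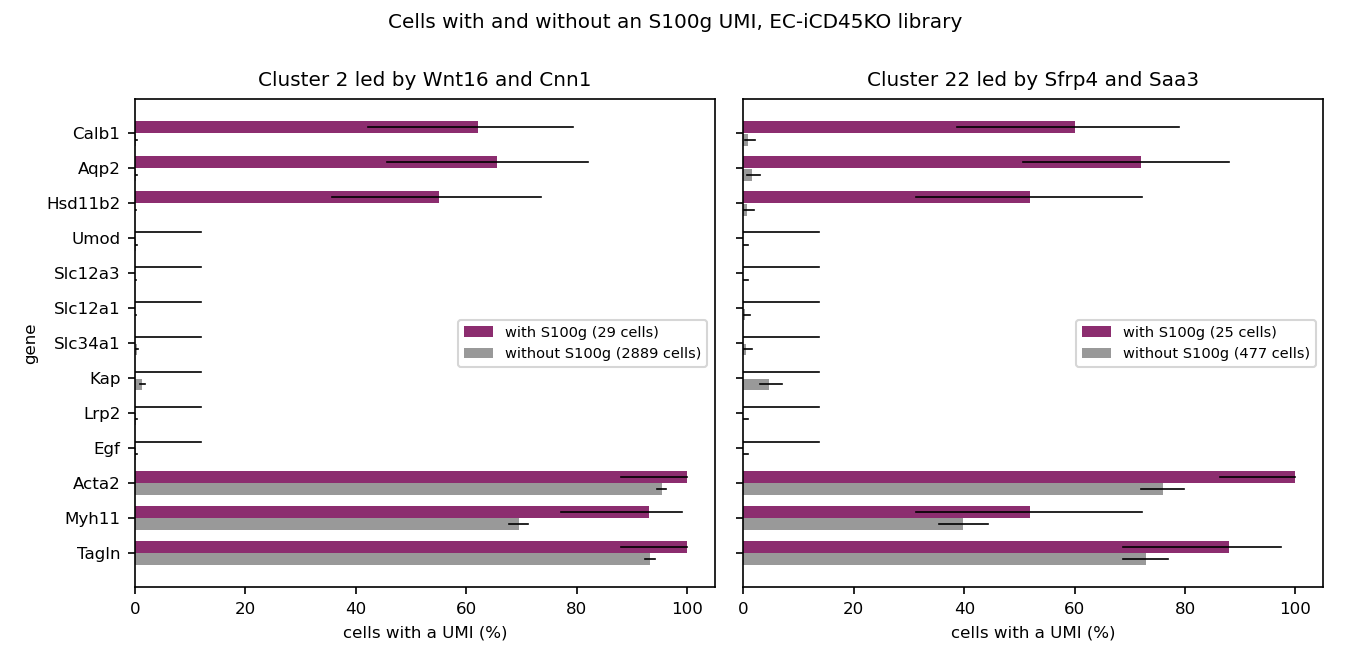
Percent of cells with a UMI (x axis) of 10 kidney tubule and 3 smooth muscle genes in EC-iCD45KO cells with (purple) and without (grey) an S100g UMI, in clusters 2 and 22; lines are 95% Clopper-Pearson intervals. Calb1, Aqp2 and Hsd11b2 stand at 52% to 72% in cells with S100g, the other 7 kidney genes at 0, and the smooth muscle genes are present in both kinds of cell.

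Over the 28 points given by 14 classes in 2 libraries, which share library and depth, the member levels on the log2(CPM + 1) scale were most alike for S100a8 and S100a9 (Pearson r = 0.985), then S100a4 and S100a6 (0.828), S100a6 and S100a11 (0.741) and the head-to-head pair S100a1 and S100a13 (0.709). Among 4120 genes outside the family and the class markers, the closest to S100a6 was Anxa2 (r = 0.913), the annexin that binds S100A10. Those closest to S100a8 were Acod1, Cstdc4 and Fpr1 (0.915, 0.909 and 0.904), the closest to S100b was Sox6 (0.915), and the closest to S100a1 was Pdgfa (0.929). For S100a10, with the weakest best match, it was Pdcd6ip (0.817).

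Of the other genes of the family, 7 had a row in the files, and S100a16 alone reached more than 2.51 CPM in a class. It was highest in lymphatic EC-like cells, at 255 and 300 CPM, and stood at 229 and 245 in EC-like cells (0.10, -0.00 to 0.19). Of the 10 receptor genes on the list, 9 could be compared in EC-like cells, where 1 was at least 2-fold higher and 1 at least 2-fold lower, as were 1.81% and 3.43% of all genes there, with a median of 0.18. Mcam, an adhesion receptor, stood at 47.4 and 98.4 CPM (1.05, 0.86 to 1.25), and Cd69, an early activation marker of lymphocytes, at 95.04 and 18.8 (-2.34, -2.60 to -2.09). The T/NK list (453 and 83.6 CPM) and the B list (2256 and 734) were also lower in EC-like cells, and their part in the Cd69 difference was not tested. The calprotectin receptor Tlr4 stood at 25.7 and 40.4 CPM (0.66, 0.38 to 0.94) and its co-receptor Cd14 at 160 and 309 (0.95, 0.84 to 1.06), which is also on the macrophage marker list. Ager, the receptor RAGE, had at most 1.01 CPM in EC-like cells.

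None of the 14 partner and target genes compared in EC-like cells reached 2-fold, and their median was 0.12. Anxa2 stood at 469 and 771 CPM (0.72, 0.65 to 0.78), Ahnak at 478 and 504 and Myh9 at 424 and 431. Cacybp, which binds S100A6, stood at 110 and 174 CPM (0.67, 0.53 to 0.80). The 7 other EF-hand calcium binders compared had a median of 0.06 with none past 2-fold.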

How the data were processed

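The data are 2 single-cell RNA-seq libraries of CD31-enriched aortic cells, WT and EC-iCD45KO. Each deposited matrix gives UMI counts, as whole numbers, per gene and barcode, made by the authors with Cell Ranger 7.1.0, per the file headers, on mm10, per the submitters' processing notes. The annotation, intron counting and cell calling are not given in the sources used here. The members and gene lists were chosen with earlier results of these data known.

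Barcodes were kept from 300 genes upward with mitochondrial UMIs up to 10% (39503 and 28960). Scrublet's own threshold marked 5 and 0 cells and so had not worked, and the top-scoring 10% of each library were removed, leaving possible doublets. Free RNA in the droplets was neither estimated nor removed here. Both libraries were clustered together without the S100, mitochondrial and listed receptor, partner and EF-hand genes (scanpy 1.11.5, leidenalg 0.10.2, 2000 variable genes, 30 components, 20 neighbours, resolution 1). A cluster was named X-like where the mean log2 excess of its class markers was at least 1 with a lead of 0.75 over the next class, at least 3 markers were detected and 50 cells were present. A cluster also stayed unnamed where another class had more markers among its 10 leading genes. This rule left out the Sfrp1 and Gkn3 cluster, which met the other rules for EC. Shallow clusters with none of their class markers among the leading genes were left unnamed as well. Rebuilt names may differ from those of the study. Of the unnamed cells there were 6667 in WT and 3604 in EC-iCD45KO.

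Counts were summed per class and library as CPM with exact Poisson intervals. Log2 ratios and UMI ratios have exact conditional binomial intervals and shares exact Clopper-Pearson intervals after thinning to 1000 UMIs, with shallower cells left out. The shares of cells with other neutrophil markers, or with kidney tubule and smooth muscle genes beside S100g, were not thinned and cover all cells. A gene with 0 UMIs was set against a floor of 3 counts per library. UMIs mark molecules, so intervals cover counting error only. Genes averaging 5 CPM or more over both libraries gave the background of genes past 2-fold. The genes named were the 10 members, list genes past 2-fold and the 3 most abundant of each list, and for each member with at least 100 CPM in a class up to 3 genes of highest Pearson r. Tlr4, Cd14, Ager and Cacybp were named after their values were seen. Not every gene that this rule covers is reported here. Gene positions came from GENCODE M21 (GRCm38), where 32158 of 32285 identifiers matched, and promoters from RefSeq, where 9 of the 10 members matched and S100a10 was not used.

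In simulated EC-like sums of 10939 genes, 95.4% of intervals held the true ratio, and the sign was right for 100% of genes changed 0.5-, 1.5-, 2- or 4-fold. The sums were drawn as Poisson counts, which the intervals assume. The simulation therefore checks the computation only, and cannot show how the intervals fare where few cells hold most UMIs. Alternatives were a stricter cell filter, no doublet removal, Leiden resolution 2, means of single-cell CPM, CPM without mitochondrial, ribosomal and haemoglobin genes, TMM factors (edgeR 4.0.16, R 4.3.3), no minimum level, other thinning, 1.5-fold, and, added after the data were seen, the Sfrp1 cluster as EC-like, equal cluster weights, and leaving out cells with at least 5 UMIs of S100a8 and S100a9 or 1 monocyte-like cell. Figures were drawn with matplotlib 3.10.9, and scipy 1.17.1, pandas 2.3.3 and numpy 2.4.6 ran under Python 3.11.15.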

Additional observations from a re-analysis of the deposited data

Results flagged for a closer look

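Members whose counting intervals lay on opposite sides of 0 in 2 related classes are given here with their log2 ratios of EC-iCD45KO over WT. With 1 library per group, no difference between classes was tested. S100a8 stood at 2.25 in macrophage-like and -1.85 in monocyte-like cells, and S100a9 at 2.69 and -2.32. Both monocyte-like values rested on 1 WT cell and turned to 1.15 and 0.62 without it. S100a1 stood at -0.28 in macrophage-like cells against 0.65 in monocyte-like and 0.17 in EC-like cells. S100a4 stood at 0.40 in EC-like cells against -0.24 in SMC-like and -0.15 in fibroblast-like cells, and S100a10 at 0.34 in EC-like against -0.45 in SMC-like cells. The opposite signs did not hold throughout: SMC-like S100a4 was above 0 under 3 alternatives (0.31, 0.082 and 0.16) and SMC-like S100a10 under 1 (0.028). Fibroblast-like S100a4 was above 0 under 4 (0.12, 0.16, 0.41 and 0.38) and in both of its clusters. S100a11 stood at 0.65 in EC-like and -0.078 in SMC-like cells, the latter above 0 under 3 alternatives (0.13, 0.11 and 0.12). S100a6 stood at 0.82 in EC-like and -0.12 in macrophage-like cells, the latter above 0 under 2 alternatives (0.018 and 0.005), and S100a13 at 0.20 and -0.15.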

How the results depend on the processing

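Values are log2 ratios of EC-iCD45KO over WT. The member median in EC-like cells, 0.52, was 0.43 at Leiden resolution 2, 0.61 with no minimum level and 0.40 with the Sfrp1 and Gkn3 cluster added, and all EC-like alternatives were above 0. In SMC-like cells the median of 0.01 became 0.34 at resolution 2, 0.27 as means of single-cell CPM, 0.087 with TMM and 0.32 with equal cluster weights. The 0.01 counts S100g, with 0 UMIs in WT, as the highest ratio. In fibroblast-like cells 0.22 became 0.071 at resolution 2. In macrophage-like cells 0.17 became 0.003 at resolution 2, 0.31 as single-cell means, 0.28 with no minimum and 0.25 with equal weights. In monocyte-like cells 0.01 became 0.13 without doublet removal, 0.10 without cells rich in S100a8 and S100a9, and 0.12 without 1 WT cell; at resolution 2 the class was not named and gave no value. The S100a9 to S100a8 ratio of neutrophil-like cells stayed between 1.92 and 1.95 in WT and at 1.85 in EC-iCD45KO under its 3 alternatives.

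Single ratios turned sign as follows, and the cause was not tested. At resolution 2, SMC-like S100a4 was 0.31, S100a11 0.13 and S100b 1.37, fibroblast-like S100a4 0.12 and S100a10 -0.018, macrophage-like S100a11 -0.15 and neutrophil-like S100a9 0.03. As single-cell means, SMC-like S100a4 was 0.082, S100a10 0.028, S100a11 0.11 and S100b 0.46, chondrocyte-like S100a4 0.015, fibroblast-like S100a4 0.16, macrophage-like S100a6 0.018, monocyte-like S100a10 -0.019 and neutrophil-like S100a11 -0.017. With equal cluster weights, SMC-like S100a4 was 0.16, S100a11 0.12 and S100b 0.33, fibroblast-like S100a4 0.41 and macrophage-like S100a6 0.005. Without doublet removal, fibroblast-like S100a4 was 0.38, monocyte-like S100a8 0.96 and S100a9 0.54. With the stricter filter, lymphatic EC-like S100a8 was -0.58 and S100a9 -1.34, and neutrophil-like S100a9 0.22; with TMM the last was 0.024. Monocyte-like S100a8 and S100a9 were 1.66 and 1.35 without cells rich in the pair, and 1.15 and 0.62 without 1 WT cell. No paired analysis was possible because the groups hold 1 library apiece, and no library could be left out. S100b and S100g had under 10 UMIs in many classes, where counting error is large.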
